A study of Mus musculus with 4 samples.

Results

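Transcript levels of 8 genes of the phosphoinositide 3-kinase (PI3K) and AKT signalling chain were examined in C8-D1A, a mouse line established from astrocytes. They are the kinases Akt1 and Akt2, the PI3K catalytic subunits Pik3ca and Pik3cb, the PI3K regulatory subunits Pik3r1 and Pik3r2, the AKT-activating kinase Pdpk1 and the kinase Mtor. The genes were taken by symbol from a table of 24169 genes, where each had 1 row, and all 8 passed a filter on low values (2 or more libraries with an FPKM of 1 or higher), as 12403 genes did. FPKM is a fragment count scaled to gene length and to mapped reads, so levels of different genes can be compared roughly. The length that fitted the values is that of all annotated exons joined. It exceeds the longest transcript unequally (10935 against 7161 bases for Pdpk1, 9088 against 8917 for Pik3ca). The order of genes with close levels is therefore not secure. The 4 libraries are 2 of untreated cells (controls) and 2 of cells kept for 24 h with MBP at 1 mM. No genotype or allele is given that differs between the groups, and the labels name brain as the source and astrocyte as the cell type. MBP is given only by this abbreviation and names an agent added to the cells, not the gene Mbp. The title of the series places AKT at the head of a signalling chain in astrocytes, which is the question these genes bear on. Whether the 2 libraries of each group are separate cultures is not stated, so p-values measure only the spread between libraries, which may be technical.

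PI3K of class IA is a pair of a catalytic and a regulatory subunit. When growth factor receptors recruit it to the membrane, it makes a phosphorylated lipid that binds AKT and PDK1, the product of Pdpk1. PDK1 then phosphorylates AKT in its activation loop, and a complex that contains mTOR phosphorylates it near its end. Active AKT restrains FOXO transcription factors and GSK3, and releases mTOR complex 1 to drive protein synthesis. These steps are run by phosphorylation and lipids, which RNA sequencing does not measure, so the values here are transcript levels alone.

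Recovered depth was 23571000 to 25907000 reads per library. The line was checked against marker genes. Of 11 astrocyte markers 7 had a mean under 1 FPKM, among them Gfap (0.119 to 0.282 FPKM), Slc1a3 (1 read in all) and Aqp4, while Vim stood at 487.0 to 531.2. The astrocyte list, mostly Vim, summed to 549.6 and 553.6 FPKM untreated and 521.8 and 509.0 with MBP. Its other markers above 1 FPKM were S100b (5.34 and 5.69 against 4.75 and 5.25), Glul (12.59 and 13.56 against 13.56 and 13.64) and Sox9 (2.30 and 2.22 against 2.32 and 2.50). Of the markers of the oligodendrocyte lineage, Sox10 stood at 87.8 to 99.97 FPKM. The summed FPKM of the oligodendrocyte list (6 genes in the table, Mag near 0) was 120.8 and 116.9 untreated and 107.2 and 107.4 with MBP. That of the neuron list (5 genes, led by Tubb3, with Snap25 and Dcx at or near 0) was 35.4 and 32.6 against 25.9 and 25.5. Tubb3 alone read 33.2 and 30.8 against 23.8 and 23.3, while the groups overlapped for Map2 (2.18 and 1.78 against 2.12 and 2.22). The microglia list (5 genes, with Itgam and Ptprc at or near 0) summed to 6.04 and 6.43 against 5.10 and 5.71. Most of the microglia sum was Tmem119 (5.50 and 5.92 against 4.47 and 5.05), while Cx3cr1 had both MBP libraries above both controls (0.201 and 0.122 against 0.334 and 0.248). The endothelial and fibroblast lists summed to at most 6.24 and 0.695 FPKM. The part of these differences in the results below was not tested. In bulk RNA, fewer cells that use a gene and less of its RNA per cell cannot be told apart.

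Since the paralogs Akt1 and Akt2 are close relatives, the first question was whether their reads can be separated. The longest stretch that their longest coding sequences (GENCODE M21, 1440 and 1443 bases) share without a mismatch is 32 bases, at positions 1087 to 1118 of Akt1 and 1090 to 1121 of Akt2, counted from the first base of the start codon. It is shown with 45 bases on each side, the shared stretch in capitals, because a short read from there could come from either gene.
Akt1: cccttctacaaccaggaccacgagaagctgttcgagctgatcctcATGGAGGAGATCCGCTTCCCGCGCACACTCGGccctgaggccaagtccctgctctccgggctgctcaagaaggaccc
Akt2: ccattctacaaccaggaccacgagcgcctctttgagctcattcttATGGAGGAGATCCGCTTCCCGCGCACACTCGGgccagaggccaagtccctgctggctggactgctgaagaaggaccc
The 122 printed bases differ at 16 positions. In all, 3 runs of 31 bases occurred in both coding sequences, not all of them inside the stretch shown. The other pairs shared less: the longest common stretch was 20 bases for Pik3r1 and Pik3r2 and 15 for Pik3ca and Pik3cb, with no common run of 31 bases. How the authors assigned reads that match both genes is not stated. Rows of other genes overlapped 5 of the 8, in 7 cases, and the highest FPKM in those rows was 3.24.

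Mean levels ranged from 7.30 to 87.7 FPKM over the 8 genes, more widely than any of them differed between treatments. Some neighbours differed by less: the mean of Pik3cb was 1.02 times that of Pik3ca, while Pik3r2 differed by -14.1% between treatments. Akt1 was by far the most abundant, reading 89.8 and 97.3 FPKM untreated and 80.8 and 82.9 with MBP. Its mean over the 4 libraries, 87.7 FPKM, lay above 97.5% of tested genes and was 3.84 times that of Akt2, the next in order at 22.8. Pik3r2 (16.1), Mtor (14.5), Pdpk1 (11.5), Pik3cb (10.4), Pik3ca (10.3) and Pik3r1 (7.30) followed. Pdpk1 and Pik3cb overlapped in their ranges over libraries, as did Pik3cb and Pik3ca. The ranges of the other neighbours lay apart, though for Pik3r2 and Mtor by only 14.91 against 14.90 FPKM, the lowest library of Pik3r2 against the highest of Mtor.

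**Figure D1:**
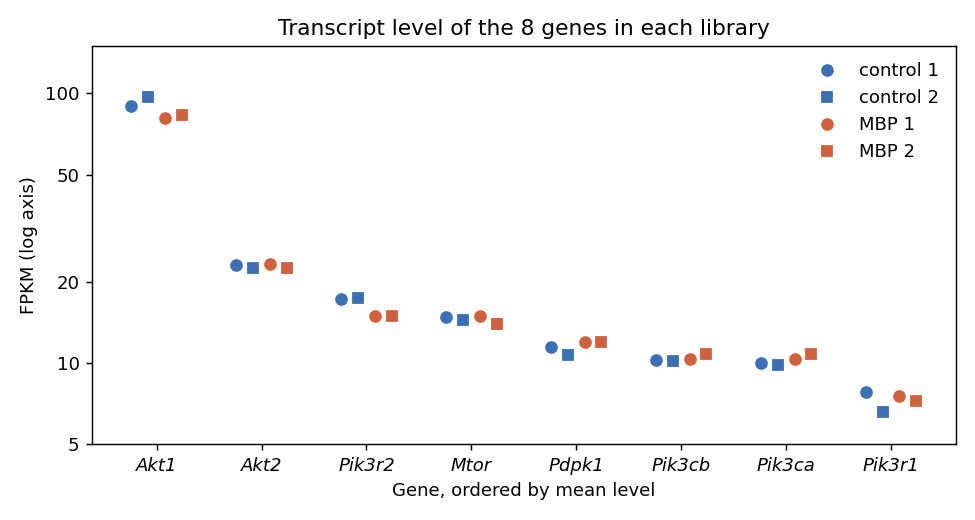
FPKM (log axis) of each of the 8 genes in each library, with controls in blue, MBP in orange, replicate 1 as circles and replicate 2 as squares. Akt1 stands at 80.8 to 97.3 FPKM, above the other 7 genes, which lie between 6.60 and 23.3.

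The main comparison asked which of these transcripts differed between MBP-treated and untreated cells. None of the 8 passed: limma's adjusted p lay between 0.496 and 0.967, with 0 of 8 past 0.05, where 0% of the 12403 tested genes passed. At an unadjusted p under 0.05 there were 2 of the 8, Pik3r2 and Akt1, both lower in MBP, against 9.68% of all genes in either direction and 5.87% for lower values. The groups did not overlap for 5 of the 8, against 44.8% of all tested genes. MBP was below in 2 (background 23.5%) and above in 3 (background 21.3%). The median log2 fold change over the 8 was 0.02 (-0.00 for all tested genes). Limma-voom on recovered reads also called 0 of the 8 (lowest adjusted p = 0.306) and put the same number, 2, under an unadjusted 0.05. That fit called 18 genes in the whole table.

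Among the AKT kinases, Akt1 (RAC-alpha, chromosome 12, 112653821 to 112674884 on the minus strand of GRCm38) averaged 93.5 ± 5.29 FPKM untreated and 81.9 ± 1.51 with MBP (SD, n = 2 per group), from 8960, 9396, 7933 and 8806 reads. Both MBP libraries lay below both controls. The mean differed by -12.5%, and the log2 fold change of log2(FPKM + 1) was -0.19 (limma SE 0.0636, 95% interval -0.35 to -0.03, adjusted p = 0.503). The controls differed from each other by 0.12 on the log2 scale, where counting alone gives a standard error of 0.0213 for such a difference. The MBP libraries differed by 0.04, with a counting standard error of 0.0223. Akt2 (RAC-beta, chromosome 7, 27591552 to 27640826, plus strand), the isoform best known for insulin-driven glucose uptake, read 23.04 and 22.4 FPKM untreated and 23.3 and 22.5 with MBP. Its groups overlapped, and the log2 fold change was 0.01 (95% interval -0.13 to 0.14).

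The make-up of the AKT pool was then compared within each library, where scaling between libraries cancels. The ratio of Akt1 to Akt2 was 3.90 and 4.33 untreated and 3.48 and 3.69 with MBP. Both MBP libraries were below both controls, a difference of -0.20 on the log2 scale with a within-group SD of 0.0875. It was -0.12 without control 2 and -0.28 without control 1. With 2 against 2 libraries the smallest exact two-sided permutation p is 0.333, which this ratio and the 3 below all gave. The sum of Akt1 and Akt2 was 116.3 ± 4.87 FPKM untreated and 104.8 ± 0.978 with MBP (SD, n = 2 per group).

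The catalytic subunits were nearly equal in level. Pik3ca (chromosome 3, 32397671 to 32468486, plus strand), which encodes the alpha subunit often mutated in cancer, read 9.96 and 9.84 FPKM untreated and 10.4 and 10.8 with MBP. Its log2 fold change was 0.09 (95% interval -0.06 to 0.24, limma adjusted p = 0.610). Pik3cb (chromosome 9, 99036654 to 99140621, minus strand), which encodes the beta subunit that G protein-coupled receptors can also engage, read 10.26 and 10.19 FPKM untreated and 10.35 and 10.85 with MBP, and its log2 fold change was 0.05 (-0.10 to 0.20). It was 0.02 without MBP 2 and 0.08 without MBP 1. In both genes both MBP libraries were above both controls, by little: the highest control and lowest MBP library of Pik3cb were 10.26 and 10.35 FPKM. The ratio of Pik3ca to Pik3cb was 0.971 and 0.966 in controls and 1.003 and 0.998 in MBP. The difference was 0.05 on the log2 scale, with a within-group SD of 0.0054, and it turned to -0.00269 after correction for GC and length. That SD is smaller than the counting standard errors of a replicate difference for either gene, 0.0417 to 0.0486, so the closeness of the replicates does not measure the precision of the ratio. The other class I catalytic subunits added little: Pik3cd, the form of blood cells, made up 3.53% to 4.06% of class I catalytic transcripts and Pik3cg at most 0.0482%.

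The regulatory subunits differed from each other. Pik3r2 (chromosome 8, 70768176 to 70776713, minus strand), the beta regulatory subunit, read 17.26 and 17.44 FPKM untreated and 14.92 and 14.91 with MBP, from 1755, 1717, 1492 and 1613 reads. Its MBP libraries lay below its controls and each pair was tight, at 17.4 ± 0.130 and 14.9 ± 0.00431 FPKM (SD, n = 2 per group). The mean differed by -14.1%, and the log2 fold change was -0.21 (SE 0.0515, 95% interval -0.34 to -0.07, limma adjusted p = 0.496), the lowest adjusted p of the 8. The MBP libraries differed by only -0.00059 on the log2 scale, less than the counting standard error of 0.0518 for that difference. Pik3r1 (chromosome 13, 101680563 to 101768217, minus strand), which encodes the alpha regulatory subunit, read 7.83 and 6.60 FPKM untreated and 7.53 and 7.23 with MBP. The controls enclosed the MBP libraries. Its log2 fold change was 0.03 (95% interval -0.20 to 0.26), and it stood at -0.08 without control 2 and 0.14 without control 1.

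Pik3r2 was thus the main regulatory transcript in these cells. It made up 61.5% and 64.4% of the class IA regulatory transcripts (with Pik3r1 and Pik3r3) in controls and 59.2% and 58.9% in MBP. The ratio of Pik3r1 to Pik3r2 was 0.454 and 0.379 in controls and 0.505 and 0.485 in MBP, a difference of 0.26 on the log2 scale (within-group SD 0.134). It came to 0.12 without control 2 and 0.39 without control 1. The ratio of catalytic (Pik3ca + Pik3cb) to regulatory (Pik3r1 + Pik3r2) transcripts was 0.806 and 0.833 in controls and 0.924 and 0.979 in MBP, a difference of 0.22 (within-group SD 0.0482). The MBP libraries were above the controls in both ratios. Once corrected for GC and length, as described further on, these differences were 0.07 and 0.08.

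**Figure D2:**
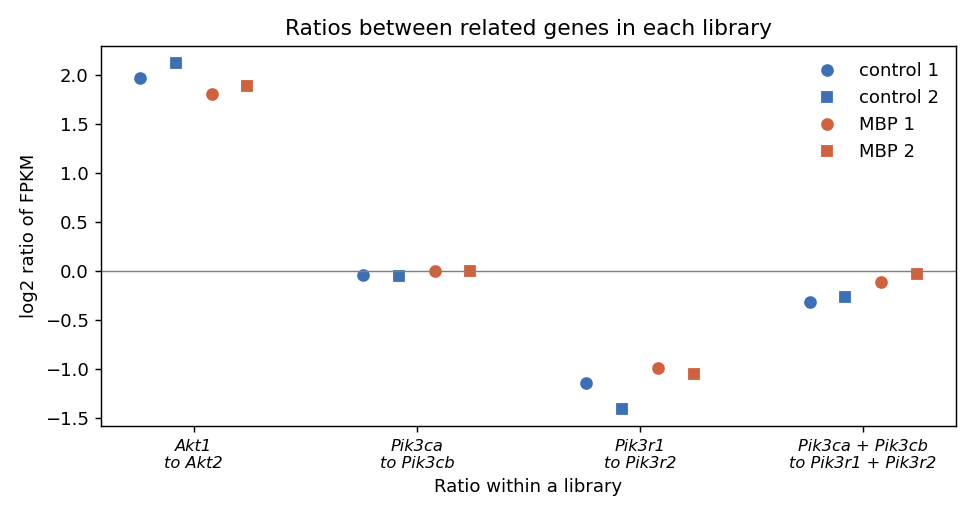
Log2 ratio of FPKM between related genes within each library (controls blue, MBP orange). For Akt1 to Akt2 the MBP libraries lie below the controls (1.80 and 1.88 against 1.96 and 2.12), and for the other 3 ratios they lie above them.

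Of the other kinases, Pdpk1 (chromosome 17, 24073680 to 24150924, minus strand), the PDK1 kinase, read 11.5 and 10.7 FPKM untreated and 11.98 and 11.95 with MBP. Both MBP libraries were above both controls, and the log2 fold change was 0.10 (95% interval -0.06 to 0.25, limma adjusted p = 0.598). It was 0.05 without control 2. Mtor (chromosome 4, 148448611 to 148557683, plus strand), the kinase of both mTOR complexes, read 14.8 and 14.4 FPKM untreated and 14.9 and 13.9 with MBP. Its groups overlapped, and the log2 fold change was -0.02 (95% interval -0.17 to 0.14). Over the 8 genes, the lowest limit of a 95% interval was -0.35 (Akt1) and the highest 0.26 (Pik3r1).

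The spread between replicates was set against counting error, with 1492 to 9396 recovered reads per gene and library. The controls differed by more than 2 counting standard errors for 3 of the 8 genes: Akt1, Pik3r1 (-0.25 on the log2 scale, control 2 minus control 1) and Pdpk1 (-0.10). The MBP libraries did so for 1, Mtor (-0.10, MBP 2 minus MBP 1). Read numbers are not independent molecules, so these errors are lower limits.

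The order of the 8 fold changes ran with the GC content of their transcripts. The longest transcripts of Pik3r2 and Akt1 had 61.4% and 59.7% GC, above 97.8% and 95.3% of tested genes, and these genes had the lowest fold changes. Akt2 (55.2%) and Mtor (54.2%) stood near 0. Pdpk1 (45.8%), Pik3cb (45.8%), Pik3r1 (44.9%) and Pik3ca (41.2%) had positive ones. Spearman's rho over the 8 was -0.81 and Pearson's r -0.91, given as a description, since the points share the same libraries. Over 12389 tested genes with a GC value rho was -0.44. In the eighth of genes with the highest GC content, which holds Akt1 and Pik3r2, the median log2 fold change was -0.09 and 47.6% of genes had both MBP libraries below both controls. In the eighth that holds Pik3ca the median was 0.06, in that of Pik3cb, Pik3r1 and Pdpk1 0.03, and in that of Akt2 and Mtor -0.07.

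**Figure D3:**
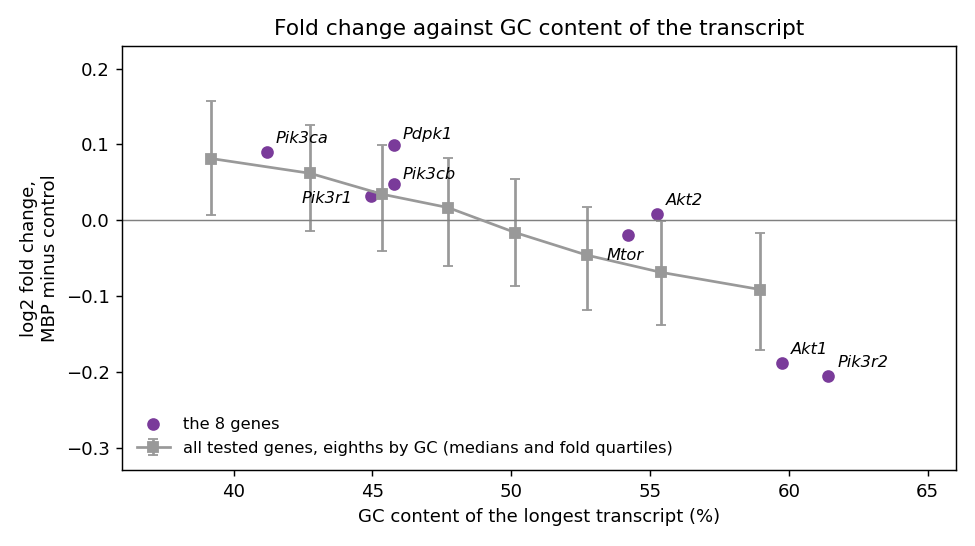
Log2 fold change (MBP minus control) against GC content of the longest transcript for the 8 genes (purple) and for all tested genes in eighths by GC (grey, median with quartiles of the fold change). The grey medians run from 0.08 to -0.09, Akt1 and Pik3r2 lie below the lower quartile of the eighth with the highest GC, and Akt2 lies above the upper quartile of its eighth.

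Each library was therefore also corrected for GC content and length with a smooth curve fitted over all tested genes. Akt1 then stood at -0.09 (95% interval -0.23 to 0.05) and Pik3r2 at -0.11 (-0.22 to 0.01), so that both intervals included 0. Pik3ca moved to -0.01, Pik3cb to -0.01 and Pik3r1 to -0.04, changing sign, and Mtor to -0.00. Akt2 moved to 0.06 and Pdpk1 to 0.04. The lowest adjusted p of the 8 in limma was then 0.735, and rho with GC content over the 8 was -0.21. The difference in the Akt1 to Akt2 ratio was -0.15 after this correction, against -0.20 before. What gave rise to the GC gradient was not tested.

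**Figure D4:**
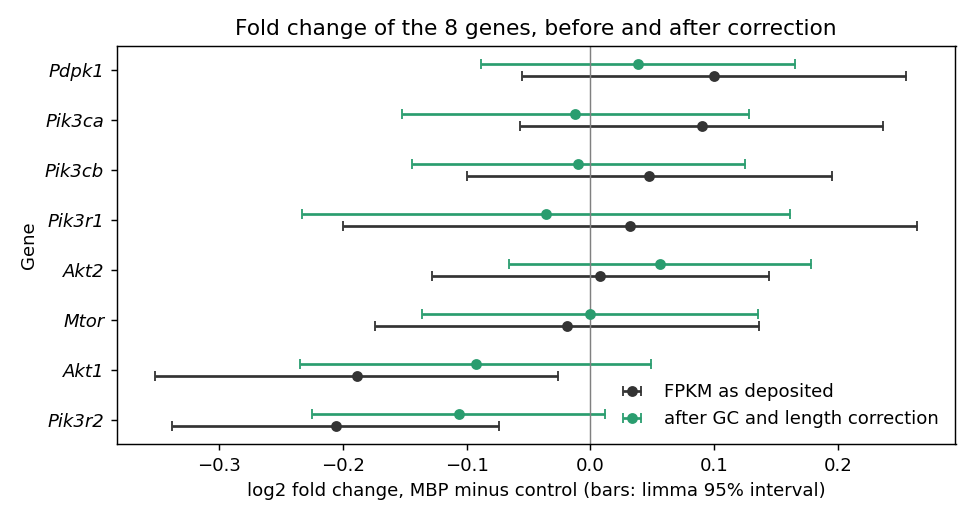
Log2 fold change of each gene with its limma 95% interval, from deposited FPKM (black) and after the correction for GC content and length (green). Before correction the intervals of Akt1 (-0.35 to -0.03) and Pik3r2 (-0.34 to -0.07) exclude 0, and after it all 8 include 0.

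Promoters were looked at for the pair with the lowest fold changes and for Pik3ca, whose transcript has the lowest GC content. RefSeq (GRCm38.p6) held 14 promoters for the 8 genes, each from 250 bases before to 50 after a start site. The one nearest the start of the deposited gene is shown 5′ to 3′ on the gene's strand, with each CpG in capitals. For Pik3ca the RefSeq start lies 606 bases from the deposited start, which the window shown does not contain.
Akt1, chr12:112674835-112675134, minus: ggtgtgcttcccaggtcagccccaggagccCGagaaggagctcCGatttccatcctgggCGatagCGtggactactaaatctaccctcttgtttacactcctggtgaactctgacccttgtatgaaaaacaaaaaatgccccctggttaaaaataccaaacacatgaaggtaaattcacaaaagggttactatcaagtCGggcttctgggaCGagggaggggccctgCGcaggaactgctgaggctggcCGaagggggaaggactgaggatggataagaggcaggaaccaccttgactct
Pik3r2, chr8:70776663-70776962, minus: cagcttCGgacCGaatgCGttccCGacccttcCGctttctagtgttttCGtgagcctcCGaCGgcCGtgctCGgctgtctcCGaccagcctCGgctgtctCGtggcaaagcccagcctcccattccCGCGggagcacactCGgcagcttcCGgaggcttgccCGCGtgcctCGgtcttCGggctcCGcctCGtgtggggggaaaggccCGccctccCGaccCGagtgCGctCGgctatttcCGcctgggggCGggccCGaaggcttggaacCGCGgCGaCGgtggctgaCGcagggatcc
Pik3ca, chr3:32396815-32397114, plus: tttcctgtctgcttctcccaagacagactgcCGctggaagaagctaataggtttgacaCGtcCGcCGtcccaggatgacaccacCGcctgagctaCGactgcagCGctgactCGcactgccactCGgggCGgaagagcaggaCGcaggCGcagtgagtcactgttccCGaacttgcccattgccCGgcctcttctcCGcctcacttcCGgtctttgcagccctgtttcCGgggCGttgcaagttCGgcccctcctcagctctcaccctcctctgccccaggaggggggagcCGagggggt
The Akt1 promoter shown, 1 of 2 held for this gene, had 8 CpG and 52.3% GC. That is near the median of 32851 promoters (7 CpG, 52.7% GC), although the longest Akt1 transcript is among the richest in GC. Which start site these cells use was not tested. The Pik3r2 promoter had 36 CpG and 69.3% GC, and that of Pik3ca 20 CpG and 63.3% GC. The 7-base FOXO core GTAAACA, searched on both strands, occurred in 1 of the 14 promoters, the one of Akt1 shown, where it reads tgtttac, and in 3.65% of all promoters. The STAT palindrome TTCNNNGAA occurred in 3 of the 14 (Akt2, Pdpk1 and Mtor) and in 8.30% of all. A match is a description of the letters and not a binding site.

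Genes around this core were taken from 11 lists by role. The lists held 163 genes, 160 of them in the table and 137 tested. None passed limma's test over all genes (lowest adjusted p = 0.496). At an unadjusted p under 0.05 there were 10, 4 higher and 6 lower, or 7.30% of 137 against 9.68% of all genes. Groups did not overlap for 54.7%, against 44.8% of all genes, with MBP below in 41 and above in 34. Among all tested genes MBP was below in 23.5% and above in 21.3%, the shares to set beside the counts by list. By list, MBP was below in 4 and above in 2 of 10 receptors, in 4 and 1 of 10 adaptors, in 0 and 2 of 5 other PI3K subunits and in 2 and 3 of 12 phosphatases. It was below in 3 and above in 6 of 12 other AGC kinases, in 2 and 1 of 9 mTOR complex subunits and in 5 and 1 of 18 genes of TSC, RHEB and lysosomal control. Of the downstream lists it was below in 4 and above in 6 of 15 AKT substrates, in 6 and 4 of 18 FOXO targets and in 2 and 5 of 14 chaperones and modulators. In the paragraphs on these lists, a second value in brackets is the log2 fold change corrected for GC and length, given for the genes chosen by lowest p. The median log2 fold change over the 137 was -0.00.

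Upstream, 0 of 10 tested growth factor receptors passed, with a median of -0.03. The receptor tyrosine kinases Axl (243.7 and 260.8 FPKM untreated, 246.5 and 237.8 with MBP) and Met (67.5 and 67.7 untreated, 66.7 and 70.5 with MBP) had the highest FPKM of the list, and the groups overlapped in each. Egfr and Pdgfra had a mean under 1 FPKM. Erbb3, a receptor that binds PI3K directly, read 21.2 and 20.5 FPKM untreated and 18.4 and 19.5 with MBP (log2 fold change -0.13 [-0.13]). Erbb2 and Pdgfrb stood at -0.15 [-0.09] and -0.14 [-0.10]. Of 10 adaptors 0 passed (median -0.04): Grb2 stood at -0.14 [-0.09], while the docking proteins Gab1 and Gab2 stood at 0.15 [0.16] and 0.08 [0.08]. The insulin receptor substrates Irs1 and Irs2 stood at -0.07 and -0.06, and at -0.09 and -0.01 once corrected for GC and length.

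Of the other PI3K subunits 5 of 10 in the table were tested and 0 passed (median 0.00). The class II enzymes Pik3c2a and Pik3c2b stood at 0.09 [-0.02] and 0.16 [0.18] and the regulatory subunit Pik3r3 at -0.02 [-0.07], so that Pik3c2a changed sign. Of 12 phosphatases that oppose the pathway 0 passed (median 0.02). The lipid phosphatase Inppl1 stood at -0.12 [-0.06] and Ppp2r1a, the scaffold of protein phosphatase 2A, at -0.17 [-0.10].

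Of 12 other AGC kinases, the family of AKT and PDK1, 0 passed, with a median of 0.05. Sgk1, a close relative of AKT that PDK1 also activates, read 17.3 and 20.03 FPKM untreated and 22.01 and 21.5 with MBP. Its MBP libraries were above its controls, with a log2 fold change of 0.21 [0.23] (limma adjusted p = 0.512). Rps6ka1, a kinase downstream of ERK, stood at -0.19 [-0.12] and Pkn2 at 0.12 [0.04]. Of 9 mTOR complex subunits 0 passed (median -0.00), and fold changes lay between -0.09 [0.02] for Akt1s1, an AKT substrate that restrains mTOR complex 1, and 0.09 [-0.01] for Rictor, the scaffold of complex 2. Both changed sign with the correction. Tti1, which helps assemble mTOR, stood at 0.06 [0.07]. Of 18 genes of TSC, RHEB and lysosomal control of mTOR complex 1, 0 passed (median -0.02). The amino acid sensing gene Nprl2 stood at -0.22 [-0.14], the lysosomal anchor Lamtor1 at -0.17 [-0.13] and the stress-induced inhibitor Ddit4 at -0.26 [-0.16], with the MBP libraries below the controls in each.

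Downstream, 0 of 15 AKT substrates passed (median -0.01). Acly, which makes acetyl-CoA for lipid synthesis, read 43.6 and 43.7 FPKM untreated and 37.3 and 37.9 with MBP (log2 fold change -0.21 [-0.19]). Cdkn1b, a cell cycle inhibitor and also a FOXO target, read 26.1 and 24.2 FPKM untreated and 30.4 and 28.4 with MBP (log2 fold change 0.22 [0.16]). Chuk, a kinase of the NF-κB pathway, stood at 0.14 [0.08]. Of 14 mTOR complex 1 outputs 0 passed, with a median of -0.07 and -0.04 after the GC correction. Both MBP libraries lay below both controls in 9 of these 14 and above them in 3, where the shares of all tested genes were 23.5% and 21.3%. Eif4ebp1, a repressor of translation, stood at -0.19 [-0.15], Maf1, a repressor of RNA polymerase III, at -0.13 [-0.04], and Eif4e, the cap-binding factor, at 0.12 [0.04]. Of 18 FOXO target genes 0 passed (median 0.00). Klf6 stood at 0.17 [0.11] and Txnip, an inhibitor of glucose uptake, at 0.25 [0.26], while Pdk4, a kinase of pyruvate metabolism, stood at -0.26 [-0.29], so these 3 did not point one way. Pdk4 lay near the filter limit of 1 FPKM, at 1.10 and 1.003 FPKM untreated and 0.702 and 0.715 with MBP. At such low levels the added 1 in log2(FPKM + 1) shrinks a fold change. Of 14 AKT chaperones and modulators 0 passed (median 0.03). The adhesion protein Ilk stood at -0.17 [-0.12], the kinase chaperone Cdc37 at -0.16 [-0.18] and the deubiquitinase Cyld at 0.12 [0.04].

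**Figure D5:**
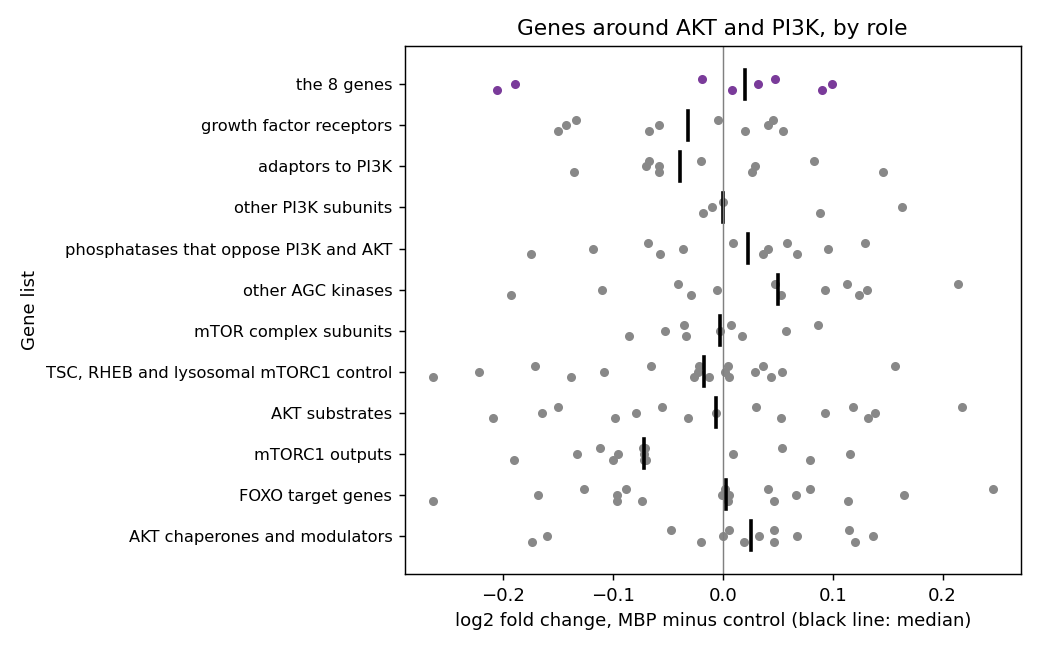
Log2 fold change (MBP minus control) of each tested gene, by list, with the median of the list as a black line. Medians lie between -0.07 for mTOR complex 1 outputs and 0.05 for other AGC kinases, and the 8 genes (purple) range from -0.21 to 0.10.

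Profiles over the 4 libraries were compared by the root mean square difference of centred log2(FPKM + 1), among 7072 protein-coding genes with a mean of at least 5 FPKM. Within the 8 genes the most alike were Pik3ca and Pik3cb (0.0215), Akt2 and Mtor (0.0216), Pik3ca and Pdpk1 (0.0336) and Akt1 and Pik3r2 (0.0386). Of all genes, the nearest to Akt1 were Atp6v1e1 (0.0043) and Ndufs8 (0.00759), and the nearest to Pik3r2 were Hist1h4d (0.00415) and Adamts5 (0.00601). Edem3 and Cbl were nearest to Pik3ca, Tmem248 and Pkp4 to Pik3cb, and Tnfrsf22 and Cit to Pik3r1. C2cd2l and Rhbdf1 were nearest to Akt2, Fmnl2 and Mtr to Pdpk1, and Mark2 and Kdm3b to Mtor. With 4 libraries such matches are common: 639 genes lay within 0.05 of Akt1 and 1866 within 0.05 of Akt2. The value of Hist1h4d is uncertain, since histone genes have nearly identical copies.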

How the data were processed

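RNA of 4 C8-D1A libraries was sequenced. A directional kit was used after depletion of ribosomal RNA, per the labels' protocols. Per the submitters' processing notes, tools were bcl2fastq and HISAT2, with build GRCm38. Counting program, annotation and use of strand: not given in the sources used here. FPKM per gene is the unit the authors deposited. Titles gave each column its sample, and replicate numbers follow accession order.

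The members, gene lists, rule for named genes and alternatives were chosen with earlier results of these data known. The rule names the 8 genes, up to 3 genes per list with the lowest unadjusted p, and 2 nearest profiles per gene. Other list genes were named after their values were seen. Some genes that the rule names are not reported here.

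Log2(FPKM + 1) of 12403 genes was tested with limma 3.58.1 in R 4.3.3 (eBayes with trend, two-sided, Benjamini-Hochberg over all genes, threshold 0.05), which was also checked on simulated data, where false calls exceeded the nominal share. FPKM times exon length (GENCODE M21, 24121 identifiers found) gave whole reads, at 1 step for each library, in at least 99.95% of single-exon values under 1000 reads (tolerance 0.05); reads of the 8 genes were whole within 0.0110. Alternatives tried were pseudocounts, filters, scalings, spread models, protein-coding genes, correction for GC and length by loess (span 0.5), limma-voom on reads, and each library left out.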

Additional observations from a re-analysis of the deposited data

How the results depend on the processing

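Each of the 8 fold changes was recomputed under 16 alternatives, and none of the 8 passed in any (lowest adjusted p 0.232, highest 1.00). The count of genes changed by MBP was 0 in 15 alternatives and 18 with limma-voom on recovered reads; the cause of that difference was not tested. Akt1 (-0.25 to -0.09), Pik3r2 (-0.22 to -0.11) and Pdpk1 (0.04 to 0.15) kept their sign in all 16. The GC and length correction turned Pik3ca to -0.0122, Pik3cb to -0.00972 and Pik3r1 to -0.0361, and TPM turned Mtor to 0.00196. With each library left out in turn Akt2 ranged from -0.0144 to 0.0307, Pik3r1 from -0.0759 to 0.140 and Mtor from -0.0653 to 0.0274, so their signs rest on single libraries: Akt2 was -0.0100 without control 2 and -0.0144 without MBP 1, Pik3r1 -0.0759 without control 2, and Mtor 0.0274 without MBP 2. Of genes at an unadjusted p under 0.05, 473 were higher and 728 lower, against 533 and 507 with TPM, and 423 higher and 432 lower when corrected for GC and length. The GC and length correction also took the difference of the Pik3ca to Pik3cb ratio to -0.00269, of the Pik3r1 to Pik3r2 ratio to 0.0721 and of the catalytic to regulatory ratio to 0.0789. With 1 library left out, the lone library of its group is assumed to vary like the others. No paired analysis was possible because the replicate numbers only follow accession order and the titles share at most 1 number between groups.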
